A study of Homo sapiens with 18 samples.

Results

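Collagen-modifying enzymes form a small set of genes whose products act on collagen chains inside the endoplasmic reticulum or cross-link collagen outside the cell. The set holds 8 genes, namely the prolyl 4-hydroxylase alpha subunits P4HA1 and P4HA2, the prolyl 3-hydroxylase P3H1, the lysyl hydroxylases PLOD1, PLOD2 and PLOD3, and the lysyl oxidases LOX and LOXL2. They were taken from the 61806 genes of the count matrix by matching Ensembl gene identifiers to these symbols. All 8 were among the 19743 genes that passed a filter on low counts. RNA was sequenced from HepG2, a human hepatoma cell line, and from APOA4-KO, a line derived from HepG2 colonies after CRISPR-Cas9 editing with guides against APOA4, which encodes a secreted apolipoprotein. Cells of each line were taken without hypoxia (0 h) or following 24 h or 48 h under 1% oxygen. Every group of line and time holds 3 libraries, and there are 6 groups. No library of either line was cultured for 24 h or 48 h in normal air, so the time in culture and the low oxygen cannot be told apart. APOA4-KO is 1 edited line, so the edit and other differences between the lines cannot be told apart. The labels do not say whether libraries of 1 group came from separate cultures, and p-values measure the spread between these libraries only.

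Prolyl 4-hydroxylases and lysyl hydroxylases are dioxygenases that use molecular oxygen, iron and 2-oxoglutarate to hydroxylate proline and lysine residues of procollagen. Hydroxyproline stabilises the collagen triple helix, and hydroxylysine carries sugars and takes part in cross-links. Lysyl oxidases are copper enzymes that oxidise lysine and hydroxylysine in secreted collagen and elastin, which starts cross-linking. Several genes of the set are known to be induced through hypoxia-inducible factor, whose DNA motif has the core ACGTG or GCGTG, and the extracellular matrix made with these enzymes is well studied in liver fibrosis and in hepatocellular carcinoma.

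Levels are given as TMM-scaled CPM, a gene's count relative to the scaled total of its library. FPKM, which also divides by gene length, is used where different genes are compared. Total counts ranged from 76481820 to 91604947 in the 18 libraries, and no library pair of a group agreed within sampling noise. In the tests below a gene "passed" at an adjusted p under 0.05 (edgeR quasi-likelihood test, Benjamini-Hochberg over 19743 genes), and passed the fold limit when its absolute log2 fold change was also at least 1. APOA4 transcripts were still counted in APOA4-KO, at 7.71, 7.94 and 8.21 CPM on average at 0 h, 24 h and 48 h, against 9.03, 20.2 and 20.1 CPM in HepG2. The line difference of APOA4 was -0.23, -1.35 and -1.29 on the log2 scale (adjusted p 0.040, 6.6e-11 and 9e-11). The paper describes guides against several exons of the gene, and counts over the whole gene do not show where in the gene these reads fell. The summed level of 10 hepatocyte markers lay between 50426 and 76165 CPM, and that of 10 mesenchymal markers between 154.2 and 246.9 CPM, with the defining fibroblast genes DCN, LUM, THY1, POSTN, PDGFRA and DES at or below 1.67 CPM in every library. The other 4 markers were ACTA2, at group means of 61.5 to 132 CPM, TAGLN (41.8 to 98.9), PDGFRB (28.6 to 49.5) and VIM (5.26 to 27.3). All 10 genes of a fixed check list of hypoxia-inducible factor targets rose in all 4 comparisons of 24 h or 48 h with 0 h. CA9 (carbonic anhydrase 9) rose by 4.08 and 2.99 on the log2 scale in HepG2 and by 2.98 and 3.42 in APOA4-KO. EGLN3 rose by 1.89 and 2.16 in HepG2 and by 2.44 and 3.57 in APOA4-KO. NDRG1 rose by 0.84 and 1.5 in HepG2 and by 1.98 and 2.43 in APOA4-KO. The 24 h change was larger in APOA4-KO for 9 of the 10 and smaller for CA9 (16.8% and 15.4% of all tested genes). From 0 h to 48 h it was larger for 7 and smaller for 2 (18.6% and 17.8%). All 10 were higher in APOA4-KO than in HepG2 at 0 h and 24 h (12.9% and 23.6%). At 48 h 8 were higher and 2 lower (23.5% and 27.3%).

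The start regions of 4 genes are shown for the motif core of hypoxia-inducible factor. LOX, P4HA1 and PLOD2 were taken from the genes past the fold limit and PLOD3 from those short of it, with their values known, so the motif counts are a description only. Each sequence runs from 250 bases before to 50 bases after a RefSeq start site (GRCh38.p14), in the 5′ to 3′ direction of the gene, and capitals mark every ACGTG or GCGTG on either strand, read on the reverse strand as CACGT or CACGC. LOX lies at chr5:122078210-122078509, P4HA1 at chr10:73096817-73097116, PLOD2 at chr3:146161135-146161434 and PLOD3 at chr7:101217532-101217831, all on the minus strand.
LOX: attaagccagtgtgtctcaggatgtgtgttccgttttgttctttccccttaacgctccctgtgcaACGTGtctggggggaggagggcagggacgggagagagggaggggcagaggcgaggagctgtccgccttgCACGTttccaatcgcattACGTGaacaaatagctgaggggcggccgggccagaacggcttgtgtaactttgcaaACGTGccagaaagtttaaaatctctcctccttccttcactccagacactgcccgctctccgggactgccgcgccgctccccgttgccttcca
P4HA1: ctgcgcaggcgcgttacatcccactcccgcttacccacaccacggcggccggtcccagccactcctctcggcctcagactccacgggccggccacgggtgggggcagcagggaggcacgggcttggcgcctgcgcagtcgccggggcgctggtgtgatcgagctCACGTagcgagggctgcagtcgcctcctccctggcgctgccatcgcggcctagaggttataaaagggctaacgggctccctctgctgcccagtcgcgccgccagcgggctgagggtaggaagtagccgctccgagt
PLOD2: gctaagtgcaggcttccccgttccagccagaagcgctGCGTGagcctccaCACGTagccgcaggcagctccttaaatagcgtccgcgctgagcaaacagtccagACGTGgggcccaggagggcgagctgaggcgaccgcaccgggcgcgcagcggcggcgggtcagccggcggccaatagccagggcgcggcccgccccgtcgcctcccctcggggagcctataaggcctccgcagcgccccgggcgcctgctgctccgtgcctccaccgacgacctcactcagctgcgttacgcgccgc
PLOD3: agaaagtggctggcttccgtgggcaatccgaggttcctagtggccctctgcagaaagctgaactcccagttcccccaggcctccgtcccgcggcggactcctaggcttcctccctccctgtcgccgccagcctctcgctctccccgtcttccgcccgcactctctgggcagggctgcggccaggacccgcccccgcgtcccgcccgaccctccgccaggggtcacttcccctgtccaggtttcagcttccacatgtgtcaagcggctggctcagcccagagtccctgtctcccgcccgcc

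The LOX region held 4 matches to ACGTG, the P4HA1 region held 1, and the PLOD2 region held 2 together with 1 match to GCGTG. No match lay in the PLOD3 region. Of all 35116 start regions of the same length, 21.4% held at least 1 ACGTG, 8.82% held at least 2 and 0.843% held at least 4, with overlapping matches counted separately. Either core was found in 48.4% of the regions. The PLOD1 region held 2 matches to GCGTG, the P3H1 region 1, and the P4HA2 region none. RefSeq lists 2 further starts for LOX, each with 1 match to ACGTG and 1 to GCGTG. LOXL2 was not included in this search. A match describes the letters in the window and does not show binding.

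At low oxygen, LOX, P4HA1, PLOD2, P4HA2 and PLOD1 rose in both lines at both times, while PLOD3 and P3H1 rose in HepG2 at 24 h but in none of the other 3 comparisons with 0 h, and LOXL2 did not pass in any comparison with 0 h. In HepG2 at 24 h, 7 of 8 genes rose and none fell, against 11.4% of all tested genes that rose and 18.3% that fell. P4HA1 and LOX also passed the fold limit upward, as 2.06% of genes did. At 48 h in HepG2, 5 genes rose and 2 fell (13.1% and 14.6% of all tested genes), and LOX, P4HA1 and PLOD2 passed the fold limit (1.41% of genes). In APOA4-KO at 24 h, 5 rose and 2 fell (21.5% and 22.8% of all genes), and P4HA2, PLOD2 and LOX passed the fold limit (3.69%). In APOA4-KO at 48 h, 5 rose and 1 fell (23.9% and 25.9%), and P4HA1, PLOD2 and LOX passed the fold limit (5.34%). The median log2 fold change of the 8 genes was 0.617, 0.384, 0.641 and 0.764 in these 4 comparisons, where the median of all tested genes lay between -0.0676 and -0.00957.

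**Figure D1:**
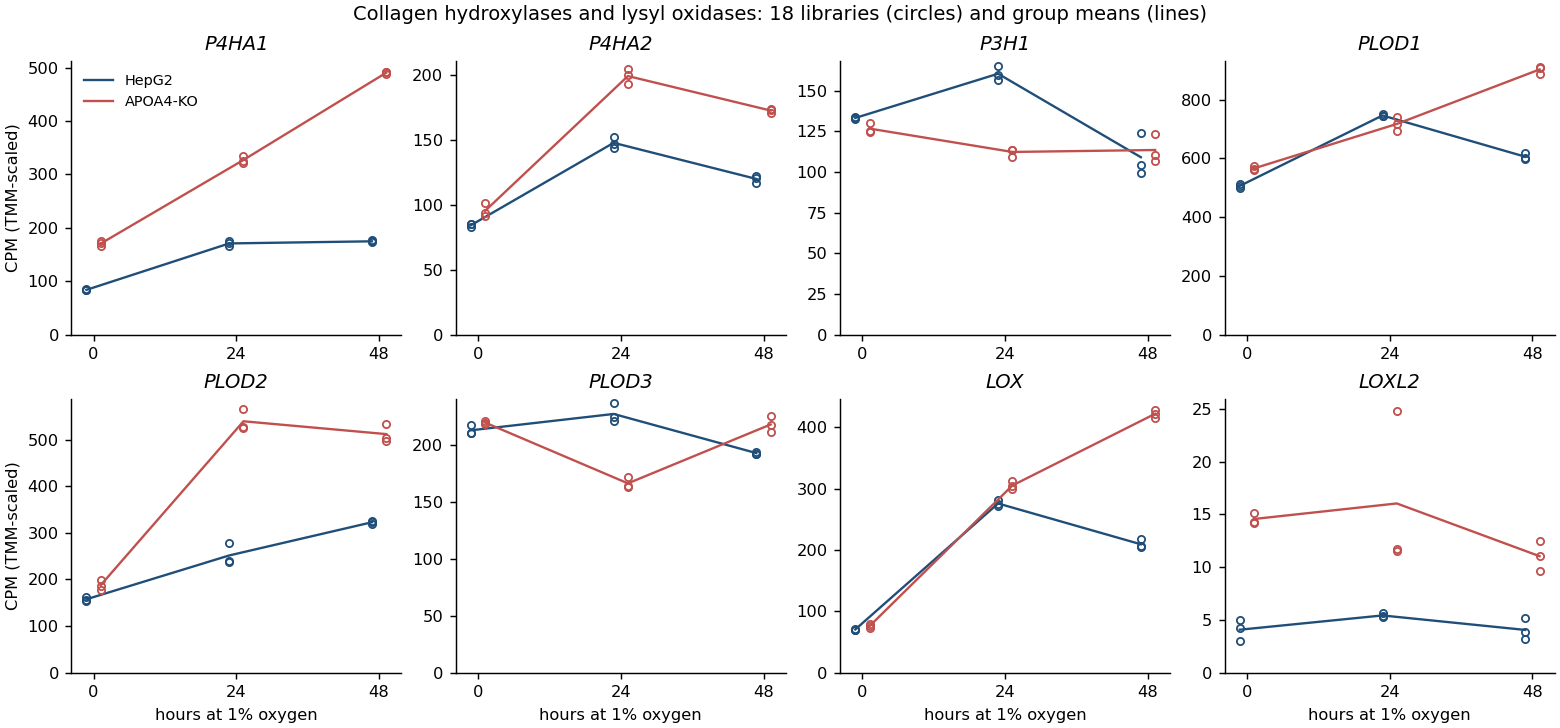
Level of each of the 8 genes in TMM-scaled CPM (y axis, from 0) against hours at 1% oxygen (x axis). Circles are the 18 libraries and lines join the means of 3 libraries, HepG2 in blue and APOA4-KO in red, drawn slightly apart on the x axis. For every gene except PLOD3 and P3H1 the 3 APOA4-KO libraries at 48 h lie above all HepG2 libraries. The share of all genes that separate in this way was not counted. For LOXL2, 1 APOA4-KO library at 24 h lies far above the other 2.

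LOX, the lysyl oxidase that starts cross-links between collagen molecules, showed the largest rise of the set. In HepG2 its level was 72.0, 70.2 and 69.4 CPM in the 3 libraries at 0 h, 274, 272 and 282 CPM at 24 h and 206, 205 and 218 CPM at 48 h. In APOA4-KO it was 73.3, 75.8 and 79.0 CPM at 0 h, 312, 305 and 299 CPM at 24 h and 428, 416 and 423 CPM at 48 h. No group overlapped another. The lines lay close together at 0 h and at 24 h and far apart at 48 h. The rise over 0 h at 24 h was 3.91-fold in HepG2 (log2 1.97 ± 0.031 SE, adjusted p 1e-18) and 4.02-fold in APOA4-KO (log2 2.01 ± 0.031 SE, adjusted p 3.4e-19). From 24 h to 48 h the lines parted. LOX fell by 24.1% in HepG2 (log2 -0.40 ± 0.03 SE, adjusted p 6.2e-09) and rose by 38.3% in APOA4-KO (log2 0.47 ± 0.03 SE, adjusted p 2.7e-10). The difference between these changes was 0.87 ± 0.042 (SE, adjusted p 8.3e-12). Over the whole 48 h the rise was 2.97-fold in HepG2 and 5.55-fold in APOA4-KO, and the change was larger in APOA4-KO by 0.90 ± 0.042 (SE, adjusted p 5.1e-12) on the log2 scale. The corresponding difference at 24 h did not pass, at 0.038 ± 0.042 (SE, adjusted p 0.59). LOX thus differed between the lines past the fold limit at 48 h only (1.01 ± 0.03 SE, adjusted p 1.7e-15), against 0.11 at 0 h and 0.15 at 24 h.

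P4HA1 encodes the main catalytic alpha subunit of prolyl 4-hydroxylase. Its level in HepG2 was 83.1, 85.8 and 83.2 CPM at 0 h, 165, 172 and 176 CPM at 24 h and 176, 176 and 173 CPM at 48 h. Its level in APOA4-KO was 175, 166 and 171 CPM at 0 h, 321, 335 and 325 CPM at 24 h and 488, 492 and 492 CPM at 48 h. APOA4-KO without hypoxia stood where HepG2 stood after 24 h or 48 h of it, and these 3 groups overlapped, while the other groups did not. The line difference at 0 h was 1.02 ± 0.027 (SE, adjusted p 1.9e-15) on the log2 scale, and it was 1.49 ± 0.027 (SE, adjusted p 1.6e-18) at 48 h. The HepG2 change from 24 h to 48 h was 0.033 ± 0.026 (SE, adjusted p 0.41), and it was a rise of 0.12 (adjusted p 0.0011) with library totals alone as scaling. APOA4-KO went on rising over that interval, by 0.58 ± 0.026 (SE, adjusted p 2.4e-12), and the difference between the lines in this change was 0.55 ± 0.037 (SE, adjusted p 7.1e-10). The rise from 0 h to 24 h was alike in size, at 2.03-fold and 1.92-fold, and the difference between the lines was -0.085 ± 0.037 (SE, adjusted p 0.095), which did not pass.

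P4HA2, the second alpha subunit, peaked at 24 h in both lines. In HepG2 it stood at 85.2, 82.8 and 85.1 CPM at 0 h, 147, 144 and 152 CPM at 24 h and 122, 117 and 121 CPM at 48 h. In APOA4-KO it stood at 93.5, 101 and 91.8 CPM at 0 h, 194, 199.8 and 205 CPM at 24 h and 171, 173 and 174 CPM at 48 h. None of the 6 groups overlapped, and APOA4-KO was the higher line at each time. From 0 h to 24 h P4HA2 rose by 0.81 ± 0.035 (SE, adjusted p 2e-12) in HepG2 and by 1.06 ± 0.035 (SE, adjusted p 1.7e-14) in APOA4-KO, a difference of 0.25 ± 0.049 (SE, adjusted p 0.00046). It fell from 24 h to 48 h by 18.8% in HepG2 and by 13.3% in APOA4-KO, and the difference between these falls did not pass (adjusted p 0.14). That difference depended on the scaling, since it passed at 0.16 (adjusted p 0.017) with DESeq2 size factors, at 0.15 (adjusted p 0.0065) with the DESeq2 Wald test and at -0.12 (adjusted p 0.038) with library totals alone. Exons of P4HA2 share 548 bases (6.45% of its exon bases) with an antisense gene, P4HA2-AS1, and whether strand was used in counting is not given in the sources used here.

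The makeup of the alpha-subunit transcripts shifted toward P4HA1 over 48 h in both lines. P4HA1 made up 76.5% ± 0.60 (SD, n = 3) of the summed FPKM of the pair in HepG2 at 0 h, and 79.1% ± 0.48 and 82.7% ± 0.34 at 24 h and 48 h. In APOA4-KO its share was 85.4% ± 0.97, 84.3% ± 0.39 and 90.3% ± 0.035. The counts of P4HA1 and P4HA2 were alike in HepG2 at 0 h, at 84.0 and 84.4 CPM. The 76.5% share there thus rests on the gene lengths behind the FPKM, 3160 and 10354 bases. These lengths are fixed over all groups. The pair together rose from 35.4 to 69.0 FPKM in HepG2 and from 65.5 to 159.8 FPKM in APOA4-KO over 48 h. The beta subunit P4HB (protein disulfide isomerase), which completes the enzyme, was far more abundant, at 2794 to 3824 CPM on average in the 6 groups. P4HB rose in HepG2 at 24 h by 0.29 and in APOA4-KO by 0.14 at 24 h and 0.24 at 48 h on the log2 scale, and in HepG2 at 48 h its log2 change was -0.027 (adjusted p 0.20).

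P3H1, a prolyl 3-hydroxylase that works in a complex with CRTAP and cyclophilin B, followed a different course. Its level in HepG2 was 133, 134 and 133 CPM at 0 h, 165, 159.9 and 157 CPM at 24 h and 99.6, 104 and 124 CPM at 48 h. In APOA4-KO the levels were 125, 130.4 and 125 CPM at 0 h, 114, 109.4 and 114 CPM at 24 h and 123, 107 and 111 CPM at 48 h. P3H1 rose in HepG2 at 24 h (0.27 ± 0.061 SE, adjusted p 0.0022) and was lower at 48 h than at 0 h (-0.29 ± 0.061 SE, adjusted p 0.0014), with 1 library above the other 2 at 48 h. In APOA4-KO it fell at 24 h by 11.3% and at 48 h by 10.4%, with adjusted p 0.028 and 0.040, and both calls were lost when no filter on low counts was used (adjusted p 0.068 and 0.087). The 48 h call was also lost with DESeq2 size factors (adjusted p 0.073) and with only the compared groups in the fit (adjusted p 0.067). The 24 h change differed between the lines by -0.44 ± 0.087 (SE, adjusted p 0.00051). CRTAP fell at each time in both lines, by 0.30 and 0.32 on the log2 scale in HepG2 and by 0.34 and 0.21 in APOA4-KO at 24 h and 48 h.

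PLOD1, a lysyl hydroxylase of the helical part of collagen, had the highest count of the set. Its HepG2 level was 512, 499.7 and 507 CPM at 0 h, 752, 743 and 743 CPM at 24 h and 618, 600.4 and 598 CPM at 48 h. Its APOA4-KO level was 575, 563 and 559.9 CPM at 0 h, 718, 693 and 740.2 CPM at 24 h and 889, 910.5 and 908 CPM at 48 h. The lines crossed, since PLOD1 rose in HepG2 by 47.4% at 24 h and then fell by 18.8%, while in APOA4-KO it rose by 26.7% and then by a further 25.9%. The change in APOA4-KO minus that in HepG2 was -0.22 ± 0.031 (SE, adjusted p 1.6e-05) from 0 h to 24 h and 0.63 ± 0.031 (SE, adjusted p 8.3e-12) from 24 h to 48 h. At 48 h PLOD1 was 1.49-fold higher in APOA4-KO (0.58 ± 0.022 SE, adjusted p 6.1e-14). The 24 h line difference of -0.057 ± 0.022 (SE, adjusted p 0.036) turned to 0.0091 (adjusted p 0.75) when library totals alone were used for scaling, and did not pass without the filter on low counts (adjusted p 0.16) or with only the compared groups (adjusted p 0.21).

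PLOD2 hydroxylates lysines in the telopeptides of collagen, the modification that leads to stable pyridinoline cross-links. In HepG2 it stood at 156, 163 and 154 CPM at 0 h, 237, 239.8 and 277 CPM at 24 h and 324, 319 and 326 CPM at 48 h. In APOA4-KO it stood at 178, 186 and 199 CPM at 0 h, 527, 566 and 524 CPM at 24 h and 534, 498 and 503.5 CPM at 48 h. HepG2 climbed in steps over both intervals, while APOA4-KO was already at its highest level at 24 h and its 24 h and 48 h libraries overlapped. The rise to 24 h was 1.60-fold in HepG2 (log2 0.67 ± 0.052 SE, adjusted p 7e-09) and 2.87-fold in APOA4-KO (log2 1.52 ± 0.052 SE, adjusted p 3.3e-14). The difference between the lines, 0.85 ± 0.073 (SE, adjusted p 4.3e-08), was the largest of the set at this time. From 24 h to 48 h PLOD2 rose by 28.3% in HepG2, its change in APOA4-KO was -0.076 ± 0.051 (SE, adjusted p 0.27), and the difference between the lines turned to -0.44 ± 0.072 (SE, adjusted p 7.1e-05). With library totals alone the APOA4-KO change over that interval passed, with a log2 change of -0.205 (adjusted p 0.0037). At 48 h PLOD2 was still 1.59-fold higher in APOA4-KO.

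PLOD3, which also carries glycosyltransferase activity toward hydroxylysine, was the lysyl hydroxylase that did not rise over 48 h in either line. Its HepG2 level was 218, 211 and 210.5 CPM at 0 h, 237, 221 and 224 CPM at 24 h and 194, 192 and 192 CPM at 48 h. Its APOA4-KO level was 222, 218 and 220.0 CPM at 0 h, 172, 164 and 164 CPM at 24 h and 212, 225 and 218 CPM at 48 h. The dip in APOA4-KO at 24 h, of 24.3% (-0.40 ± 0.029 SE, adjusted p 1.1e-09), was followed by a return toward the 0 h level at 48 h (-0.011 ± 0.029 SE, adjusted p 0.8), which became -0.17 (adjusted p 7.2e-05) when library totals alone were used for scaling. HepG2 did not share the dip, and the 24 h change differed between the lines by -0.50 ± 0.041 (SE, adjusted p 3e-08). HepG2 fell by 9.41% at 48 h (-0.14 ± 0.029 SE, adjusted p 0.00096), and its 24 h difference of 0.094 ± 0.029 (SE, adjusted p 0.019) was lost under that scaling (0.022, adjusted p 0.66). Exons of PLOD3 share 429 bases (7.56% of its exon bases) with ZNHIT1 on the opposite strand.

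The makeup of the lysyl hydroxylase transcripts shifted toward PLOD2. PLOD2 made up 13.4% ± 0.48 (SD, n = 3) of the summed FPKM of the 3 genes in HepG2 without hypoxia, 15.4% ± 1.2 after 24 h and 22.2% ± 0.30 after 48 h. In APOA4-KO its share was 14.4% ± 0.80 without hypoxia, 30.0% ± 1.5 after 24 h and 24.3% ± 0.99 after 48 h. PLOD3 went from 24.5% ± 0.26 to 17.9% ± 0.13 in HepG2 and from 22.9% ± 0.049 to 14.0% ± 0.39 in APOA4-KO over 48 h. PLOD1 remained the largest part throughout, between 57.5% and 65.8% on average.

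**Figure D2:**
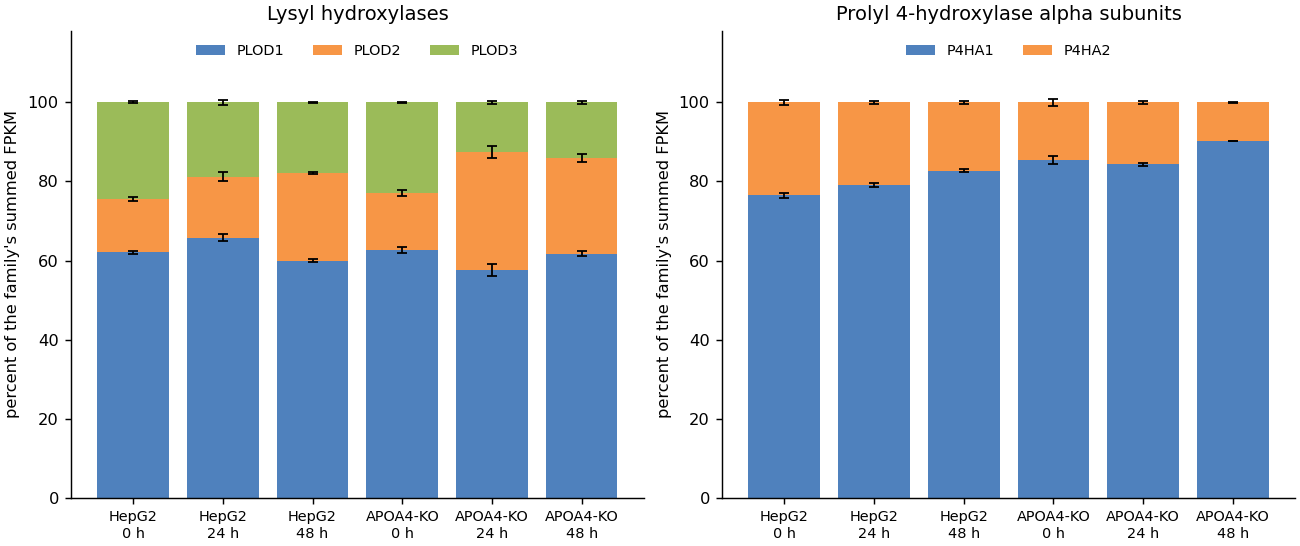
Share of each gene in the summed FPKM of its family (y axis, percent, from 0) for the 3 lysyl hydroxylases (left) and the 2 prolyl 4-hydroxylase alpha subunits (right) in the 6 groups. Bars are means of 3 libraries and error bars are SD. The PLOD2 share is largest in APOA4-KO at 24 h, at 30.0%, and the P4HA1 share is largest in APOA4-KO at 48 h, at 90.3%.

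LOXL2, a lysyl oxidase-like enzyme with a known role in cross-linking of basement membrane collagen, was the lowest gene of the set and the one that separated the lines before hypoxia most strongly. In HepG2 its level was 3.00, 4.26 and 4.96 CPM at 0 h, 5.27, 5.65 and 5.36 CPM at 24 h and 5.14, 3.17 and 3.85 CPM at 48 h. In APOA4-KO it was 14.2, 14.3 and 15.2 CPM at 0 h, 24.8, 11.7 and 11.5 CPM at 24 h and 12.4, 11.0 and 9.64 CPM at 48 h. All 9 APOA4-KO libraries lay above all 9 HepG2 libraries, and the counts behind these values ranged from 253 to 2095. The line difference was 1.84 ± 0.25 (SE, adjusted p 1.3e-05) without hypoxia, 1.56 ± 0.25 (SE, adjusted p 2.5e-05) after 24 h and 1.44 ± 0.25 (SE, adjusted p 6.6e-05) after 48 h. None of the changes with time passed, with adjusted p between 0.18 and 1 in the 4 comparisons with 0 h. With only the compared groups in the fit the 48 h change in APOA4-KO passed, at -0.37 (adjusted p 0.0096), and with library totals alone its change from 24 h to 48 h passed, at -0.67 (adjusted p 0.032). Exons of LOXL2 share 120 bases (2.1% of its exon bases) with ENTPD4 on the same strand. LOXL2 at 24.8 CPM in APOA4-KO replicate 1 at 24 h stood far above the other 2 libraries of that group.

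That library also stood apart for some genes of mesenchymal cells and basement membrane. Vimentin (VIM), an intermediate filament protein of mesenchymal cells, was at 26.6, 8.21 and 8.90 CPM in the 3 APOA4-KO libraries at 24 h, against 28.0, 26.7 and 27.3 CPM at 0 h. COL4A1 and COL4A2, which encode some of the chains of basement membrane collagen, were at 12.5, 1.76 and 2.32 CPM and 17.4, 2.68 and 4.08 CPM at 24 h, against 10.3, 11.0 and 11.0 CPM and 14.3, 14.5 and 16.1 CPM at 0 h. For these genes replicate 1 at 24 h resembled the 0 h libraries of its line more than the other 24 h libraries, whereas for LOX and P4HA1 it lay with its group. The more abundant mesenchymal markers ACTA2, TAGLN and PDGFRB did not set a library of that group apart. They ranged from 58.9 to 63.5, 42.7 to 47.1 and 42.4 to 44.1 CPM there. The fibroblast gene LUM was at 1.03, 0.193 and 0.234 CPM in the same 3 libraries, and the summed level of the 10 mesenchymal markers ranged from 154.2 to 181.4 CPM in that group. Their part in the LOXL2 result was not tested. Without replicate 1 the 24 h line difference of LOXL2 was 1.11 (adjusted p 4.4e-05), its change from 0 h to 24 h in APOA4-KO turned from 0.14 to -0.30 (adjusted p 0.21), and the difference between the lines in that change went from -0.27 to -0.72 (adjusted p 0.033). VIM and the collagen chains were chosen after their values were seen.

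**Figure D3:**
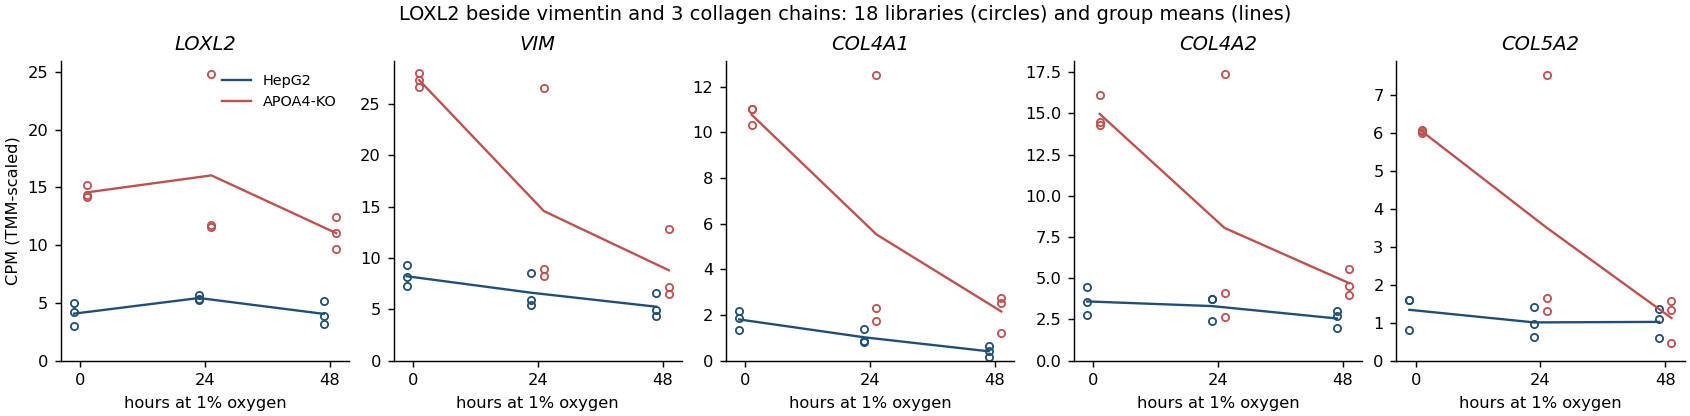
Levels of LOXL2, vimentin (VIM) and 3 collagen chains in TMM-scaled CPM (y axes, each from 0) against hours at 1% oxygen (x axes). Circles are the 18 libraries and lines join means of 3, HepG2 in blue and APOA4-KO in red. In each panel 1 APOA4-KO library at 24 h stands far above the other 2, as in LOXL2, where it is at 24.8 CPM.

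APOA4-KO exceeded HepG2 in most genes of the set. Without hypoxia 6 of 8 genes were higher in APOA4-KO and none was lower, against 12.9% and 17.6% of all tested genes, and P4HA1 and LOXL2 passed the fold limit (2.65% of genes). PLOD3 and P3H1 did not pass, at log2 differences of 0.045 and -0.072, and PLOD3 passed at 0.076 (adjusted p 0.028) with only the compared groups in the fit. At 24 h 5 genes were higher and 3 were lower (23.6% and 24.6% of all genes), the lower ones being PLOD1, PLOD3 and P3H1, and PLOD2 and LOXL2 passed the fold limit (4.5%). At 48 h 7 were higher and none was lower (23.5% and 27.3%), with P3H1 at 0.058 ± 0.061 (SE, adjusted p 0.48), and P4HA1, LOX and LOXL2 passed the fold limit (6.37%). The 48 h difference of PLOD3, 0.18, was 0.027 (adjusted p 0.49) with library totals alone as scaling. The median log2 difference of the 8 genes was 0.17, 0.288 and 0.62 at 0 h, 24 h and 48 h. Comparisons of the lines at different times share no libraries, whereas each 24 h and 48 h comparison within a line shares its 0 h libraries.

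The change with time differed between the lines for most genes. From 0 h to 24 h, P4HA2 and PLOD2 rose more in APOA4-KO and PLOD1 rose less, while PLOD3 and P3H1 rose in HepG2 and fell in APOA4-KO. Thus 2 genes passed upward and 3 downward, against 16.8% and 15.4% of all tested genes. From 0 h to 48 h, 6 genes passed upward (P4HA1, P4HA2, PLOD1, PLOD2, PLOD3 and LOX) and none downward, against 18.6% and 17.8%. The PLOD3 call, at 0.13, turned to -0.041 (adjusted p 0.50) with library totals alone as scaling. No gene of the set reached the fold limit in these differences, as 2.59% and 7.42% of genes did in either direction. The intervals from 24 h to 48 h were compared after the values had been seen. In HepG2 1 gene rose, PLOD2, and 5 fell (18.7% and 11.9% of all genes). In APOA4-KO 4 rose, namely P4HA1, PLOD1, PLOD3 and LOX, and P4HA2 fell (21.9% and 19.4%). No gene of the set passed the fold limit in these intervals, where 0.689% of all genes rose past it in HepG2 and 2.02% in APOA4-KO. Of the 19743 tested genes, 282 fell past it in HepG2 and 719 in APOA4-KO. The lines differed upward in 5 genes and downward in PLOD2 (18.8% and 20.6% of all genes), with none at the fold limit (8.67%).

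**Figure D4:**
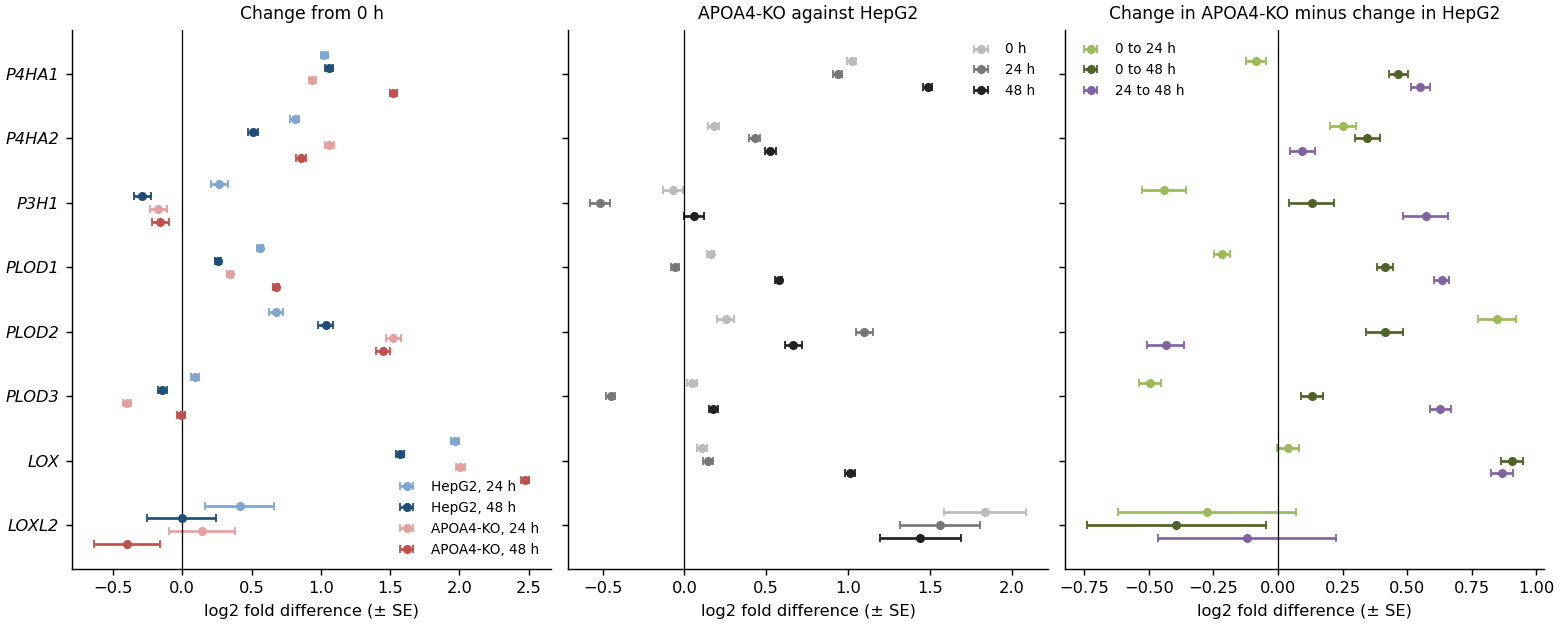
Log2 fold differences (x axes) of the 8 genes (y axis) with standard errors from the edgeR fit, for the change from 0 h (left), APOA4-KO against HepG2 at each time (middle) and the change in APOA4-KO minus that in HepG2 (right). Each point rests on 3 libraries per group. LOX reaches 2.47 in APOA4-KO at 48 h (left), and its 24 to 48 h difference between the lines is 0.87 (right).

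Compared per length, PLOD1 was the most abundant transcript of the set in every group, at 95.0 FPKM ± 1.15 (SD, n = 3) in HepG2 and 108.0 FPKM ± 0.92 in APOA4-KO at 0 h. P4HA1 came closest to it in APOA4-KO at 48 h, at 144.3 FPKM ± 0.28 against 154.3 FPKM ± 1.22. LOX rose from 12.6 to 37.8 FPKM in HepG2 and from 13.8 to 68.7 FPKM in APOA4-KO over 48 h, and LOXL2 stayed between 0.68 and 2.67 FPKM on average. The FPKM summed over the 8 genes was 221.4 ± 1.48 in HepG2 without hypoxia, 339.0 ± 3.71 after 24 h and 315.4 ± 2.78 after 48 h. In APOA4-KO the sum was 273.0 ± 1.64, 431.7 ± 4.84 and 495.4 ± 3.70. The sum thus reached its highest value after 24 h in HepG2 but after 48 h in APOA4-KO.

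Across the 18 libraries the log2 levels of P4HA1, P4HA2, PLOD1, PLOD2 and LOX moved together, with Pearson's r between 0.794 and 0.929 for their pairs. PLOD3 and P3H1 correlated with each other (r = 0.571) and not positively with any of those 5, at r between -0.565 and -0.00144. LOXL2 was most alike to P4HA1 (r = 0.62). The libraries share 6 groups, so these values describe the groups more than the libraries. Among 8553 other genes at a mean of 10 CPM or more, the most alike in pattern over the 18 libraries was PLIN2 for PLOD2 (r = 0.994), ahead of TFRC and ERO1A. NPM1 was closest to P4HA1 (r = 0.991), CEMIP to LOX (r = 0.991), FAT1 to P4HA2 (r = 0.982) and SERPINA11 to PLOD1 (r = 0.98). The closest genes for PLOD3, LOXL2 and P3H1 were NOTUM (r = 0.967), CPB2 (r = 0.938) and PLCG1 (r = 0.923).

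Other genes of collagen processing were taken from a fixed list of 26, of which 25 were tested. In HepG2 10 rose and 4 fell at 24 h (11.4% and 18.3% of all tested genes), and 4 rose and 6 fell at 48 h (13.1% and 14.6%). In APOA4-KO 8 rose and 7 fell at 24 h (21.5% and 22.8%), and 8 rose and 5 fell at 48 h (23.9% and 25.9%). Their median log2 fold change lay between -0.0969 and -0.0329 in these 4 comparisons. LOXL3, another lysyl oxidase-like enzyme, rose in all 4, from 2.70 CPM ± 0.36 to 11.2 ± 0.90 and 6.33 ± 0.71 in HepG2 and from 5.59 ± 1.05 to 20.0 ± 2.21 and 33.1 ± 1.66 in APOA4-KO (SD, n = 3). Like LOX, LOXL3 was higher at 24 h than at 48 h in HepG2 and the reverse in APOA4-KO, and the 24 h to 48 h change differed between the lines by 1.55 ± 0.17 on the log2 scale (SE, adjusted p 6.9e-07). LOXL4 changed more in APOA4-KO than in HepG2 over 48 h, by 1.06 ± 0.056 (SE, adjusted p 2.9e-11), going from 66.8 to 110.0 CPM against 123.5 to 97.7 CPM. PCOLCE2, an enhancer of procollagen C-proteinase, rose at 24 h by 1.96 in HepG2 and 1.48 in APOA4-KO on the log2 scale. PCOLCE2 then fell from 24 h to 48 h in both lines, from 5.31 to 1.32 CPM in HepG2, where it had been at 1.36 CPM at 0 h, and from 13.6 to 7.77 CPM in APOA4-KO, against 4.86 CPM at 0 h.

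Between the lines, 5 of the 25 processing genes were higher and 9 lower in APOA4-KO without hypoxia (12.9% and 17.6% of all tested genes). These numbers were 7 and 12 after 24 h (23.6% and 24.6%), and 12 and 5 after 48 h (23.5% and 27.3%). ADAMTS2, the procollagen N-proteinase, was lower in APOA4-KO at every time, with log2 differences of -1.98, -2.29 and -2.11 at 0 h, 24 h and 48 h, at 9.21 CPM ± 1.05 against 36.4 ± 2.27 at 0 h. COLGALT2, which transfers galactose to hydroxylysine, was higher in APOA4-KO by 2.32, 2.82 and 2.90 at 0 h, 24 h and 48 h, at a mean of 7.56 CPM or less. Of 44 collagen chain genes 30 were tested. In HepG2 4 rose and 4 fell at 24 h (11.4% and 18.3% of all tested genes) and none rose and 9 fell at 48 h (13.1% and 14.6%). In APOA4-KO 7 rose and 1 fell at 24 h (21.5% and 22.8%) and 9 rose and 9 fell at 48 h (23.9% and 25.9%). Between the lines 10 chains were higher and 5 lower in APOA4-KO without hypoxia. After 24 h 13 were higher and 6 lower, and after 48 h 16 were higher and 1 lower, beside the shares of all genes given above for the same comparisons. COL2A1, the chain of cartilage collagen, rose in APOA4-KO at 24 h by 1.15 ± 0.077 (SE, adjusted p 3.6e-10), from 21.7 CPM ± 0.33 to 48.2 ± 2.91. At 48 h COL2A1 was at 15.8 CPM ± 0.81, below its 0 h level (-0.46, adjusted p 6.5e-05). COL4A1, COL5A2 and COL8A1 had log2 fold changes of -2.31, -2.42 and -3.21 in APOA4-KO at 48 h. The SE was 0.56, 0.57 and 0.80 and the adjusted p 0.0019, 0.0014 and 0.0023. Their means at 48 h were low, at 2.155, 1.124 and 0.487 CPM, against 10.7, 6.03 and 4.54 CPM at 0 h. In that comparison 7 chains fell and 1 rose past the fold limit, against 1352 and 1055 of the 19743 tested genes. Fibrillar COL1A1 was at 5.32 CPM or less in every library.

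The weakest calls of the set were small differences. LOX between the lines at 48 h (1.01) lay just above the fold limit, as did P4HA1 in HepG2 at 24 h (1.02). Also close above it were P4HA1 between the lines at 0 h (1.02) and P4HA2 in APOA4-KO at 24 h (1.06). In HepG2 at 48 h PLOD2 (1.03) and P4HA1 (1.06) were close above it too. P4HA1 in APOA4-KO at 24 h (0.94) and between the lines at 24 h (0.94) lay just below the limit. Library totals alone moved the median log2 fold change of all genes in APOA4-KO at 48 h from -0.0676 to -0.225, and that of the line difference at 48 h from -0.0379 to -0.188. The LOX difference between the lines at 0 h was lost without HepG2 replicate 3 (0.092, adjusted p 0.064) or APOA4-KO replicate 3 (0.076, adjusted p 0.093) of that time. The PLOD3 rise in HepG2 at 24 h was lost without HepG2 replicate 2 or 3 at 0 h or replicate 1 at 24 h (adjusted p 0.083 to 0.14). It was 0.022 (adjusted p 0.66) with library totals alone. The PLOD3 line difference in the 48 h change was lost without HepG2 replicate 1 at 0 h, APOA4-KO replicate 2 at 0 h or APOA4-KO replicate 2 at 48 h (adjusted p 0.05 to 0.071). The P3H1 falls in APOA4-KO were lost without any 1 of 9 libraries at 24 h and of 11 at 48 h, and the PLOD1 line difference at 24 h without any 1 of 15 libraries, out of 18. In the other direction, P3H1 at 48 h passed between the lines without HepG2 replicate 3 of that time (0.15, adjusted p 0.011), as did its line difference in the 48 h change (0.23, adjusted p 0.0082). The P4HA1 line difference in the 24 h change passed without HepG2 replicate 1 at 24 h (-0.11, adjusted p 0.035), with DESeq2 size factors (-0.125, adjusted p 0.013) and with the DESeq2 Wald test (-0.12, adjusted p 0.003).

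The gene loci are given in GRCh38 with GENCODE v29 gene spans. P4HA1 spans chr10:73007217-73096974, P4HA2 chr5:132191838-132295315, PLOD1 chr1:11934205-11975538, PLOD2 chr3:146069440-146163653, PLOD3 chr7:101205977-101218420, LOX chr5:122063195-122078360 and P3H1 chr1:42746335-42767084, with PLOD1 on the plus strand and the others on the minus strand. The coordinates of LOXL2 are not reported here. Reads were counted over exons of the whole gene, so isoforms and coding against untranslated parts were not separated.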

How the data were processed

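Poly(A) RNA from HepG2 and APOA4-KO cells at 0 h, 24 h and 48 h was sequenced by the authors (3 libraries in each of the 6 groups). The labels describe a dUTP-marked second strand removed before amplification, while the study's methods name a kit without stating strand. Per the submitters' processing notes, fastp was used for trimming and HISAT2 for alignment, on GRCh38.p13, and the authors deposited raw counts per gene together with FPKM values. The submitters' processing notes list StringTie while the study's methods name featureCounts, and the strand and multi-mapping settings are not given in the sources used here. The deposited FPKM values equalled the count divided by the library total and by a fixed length per gene. Counts of 4 and 8 were more frequent than neighbouring counts (by up to 3.12 and 2.55 times), so a count need not be 1 read pair.

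Counts of all 18 libraries were fitted in 1 edgeR model (version 4.0.16, R 4.3.3) with TMM scaling, filterByExpr on the 6 groups, a coefficient per group, quasi-likelihood tests and Benjamini-Hochberg adjustment over 19743 genes. The adjusted p limit was 0.05 and the log2 fold change limit 1. The standard error of a log2 fold change was its size divided by the square root of the F statistic, with 12 residual degrees of freedom before moderation. The test was checked on simulated counts. Alternatives were DESeq2 size factors, library totals alone, no filter, the DESeq2 (1.42.0) Wald test, limma-trend (3.58.1) on log2(FPKM + 1) and log2(FPKM + 0.1), a fit of only the compared groups, a replicate block and leaving out each library. The 24 h to 48 h comparisons were added after the values were seen.

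The members and lists were chosen with earlier results of these data known. Text names all 8 members, P4HB and CRTAP, up to 3 further genes of each list per comparison with the largest change past both limits at 1 CPM or more, CA9, EGLN3 and NDRG1 of the hypoxia list, and the closest genes by correlation of log2 CPM (prior count 2). Marker genes and the levels of some other collagen chains are named outside this rule.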

Additional observations from a re-analysis of the deposited data

Results flagged for a closer look

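The change with time differed between APOA4-KO and HepG2 for several collagen-modifying genes, by a test of the difference itself in the edgeR model. Values are the log2 change in APOA4-KO minus that in HepG2. From 0 h to 24 h the difference was 0.252 for P4HA2, -0.218 for PLOD1, 0.848 for PLOD2, -0.496 for PLOD3 and -0.442 for P3H1. From 0 h to 48 h it was 0.466 for P4HA1, 0.346 for P4HA2, 0.415 for PLOD1, 0.413 for PLOD2, 0.132 for PLOD3 and 0.904 for LOX. From 24 h to 48 h it was 0.551 for P4HA1, 0.633 for PLOD1, -0.435 for PLOD2, 0.627 for PLOD3, 0.866 for LOX and 0.571 for P3H1. LOX, PLOD1 and PLOD3 moved in opposite directions in the lines over that last interval. For each of these genes every HepG2 library at 48 h lay below every HepG2 library at 24 h, and every APOA4-KO library at 48 h lay above those at 24 h. Of all tested genes, 11.9% fell in HepG2 and 21.9% rose in APOA4-KO over that interval. The share of all genes that did both, or whose libraries separated in this way, was not counted. The groups held 3 libraries each, and no formal test for a library standing apart was run. Refits without each library are described below.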

How the results depend on the processing

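Counts of members past the limits kept within 1.5 times their main value under every alternative, except for the fold limit in HepG2 at 24 h, where 1 gene in place of 2 passed with library totals alone and with limma-trend on log2(FPKM + 1) and log2(FPKM + 0.1), and between the lines at 24 h and 48 h, where 1 in place of 2 and 3 passed with limma-trend on log2(FPKM + 1). The replicate block left all 96 member results on the same side of the limit and direction, and moved none of the 24 counts of members. Same-numbered libraries did not deviate together (median correlation -0.0101, highest 0.0511, 0 of 45 pairs above 0.1, and 0 of 18 libraries closest to their own number). No pairing by number was seen, but such correlations over all genes cannot show whether same-numbered libraries shared a culture or preparation. Of 96 member results, between 83 and 92 were unchanged under each of the other 7 alternatives, and 1650 of 1728 when 1 library was left out.

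Direction changed only for small differences and for LOXL2, and the cause was not tested. With library totals alone, the log2 difference became 0.00827 for LOXL2 in HepG2 at 48 h, 0.0091 for PLOD1 and -0.0921 for P3H1 between the lines at 24 h and 48 h, -0.0408 for PLOD3 and -0.0422 for P3H1 in the line difference at 48 h, -0.114 for P3H1 in APOA4-KO from 24 h to 48 h and -0.121 for P4HA2 in the line difference from 24 h to 48 h (adjusted p 0.038). In the same order, limma-trend gave 0.0028, 0.00958, -0.083, -0.0409, -0.0366, -0.11 and -0.118 on log2(FPKM + 1) and 0.00692, 0.00964, -0.0876, -0.0418, -0.039, -0.116 and -0.121 on log2(FPKM + 0.1). With DESeq2 size factors PLOD3 in APOA4-KO at 48 h was 0.0112, LOX in the line difference at 24 h -0.00184 and P4HA1 in HepG2 from 24 h to 48 h -0.00397. The DESeq2 Wald test gave 0.00276 for that PLOD3 change and -4.56e-05 for that P4HA1 change. With no filter LOXL2 in HepG2 at 48 h was 0.00157 and PLOD3 in APOA4-KO at 48 h 0.00235. With only the compared groups in the fit LOXL2 in HepG2 at 48 h was 0.0234, PLOD3 in APOA4-KO at 48 h 0.0199, P4HA1 in HepG2 from 24 h to 48 h -0.00225 and P3H1 in APOA4-KO from 24 h to 48 h -0.000587.

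Leaving out 1 library turned the sign of LOXL2 in HepG2 at 48 h (range -0.199 to 0.179), LOXL2 in APOA4-KO at 24 h (-0.305 to 0.352), PLOD3 in APOA4-KO at 48 h (-0.0337 to 0.0299), P3H1 between the lines at 48 h (-0.00523 to 0.154), P3H1 in APOA4-KO from 24 h to 48 h (-0.0485 to 0.0594) and LOXL2 in the line difference from 24 h to 48 h (-0.328 to 0.328). Without APOA4-KO replicate 1 at 24 h the 24 h line difference in change of LOXL2 passed, at -0.724 (adjusted p 0.033). The LOXL2 change in APOA4-KO from 24 h to 48 h passed without APOA4-KO replicate 2 or 3 at 24 h, at -0.719 and -0.733 (adjusted p 0.029 and 0.024). Levels per length from CPM in place of the deposited FPKM differed by at most 7.79%. Of these 48 group levels, 25 moved by at least 1 SD of the deposited FPKM. LOXL2, the gene with the lowest counts, had the largest standard errors of the set, between 0.238 and 0.346.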
